A study of Rattus norvegicus with 8 samples.

Results

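The genes described here are polo-like kinase 2 (Plk2) and the regulators of the small GTPases Rap and Ras that act with it in dendritic spines. They are 9 of the 28909 gene symbols in the count table, taken by symbol: the kinases Plk2, Plk3 and Cdk5, the Rap GTPase-activating proteins Sipa1l1, Sipa1l2 and Sipa1l3, the Rap exchange factor Rapgef2, and the GTPases Rap1a and Rap2a. All 9 had more than 20 reads in at least 2 libraries and entered the test, which covered 14309 genes. The RNA came from primary neurons of the embryonic hippocampus of Sprague-Dawley rats. The cells sat on top of a perforated membrane that their cell bodies could not cross, whereas their neurites could grow through it. Picrotoxin (PTX), which blocks inhibitory GABA-A receptors and raises network activity, was present for 48 h, from day 18 to day 20 in vitro, and control cultures received the ethanol vehicle. RNA from above the membrane (somata) and from below it (processes) was sequenced after ribosomal RNA depletion, giving 4 conditions with 2 libraries each and 8 libraries in all. Nothing in the labels says whether the libraries of a condition came from separate cultures, so p-values measure the spread between these libraries, which may be technical.

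Plk2 is a kinase that neurons make in response to sustained activity. It phosphorylates the spine protein SPAR, the product of Sipa1l1, after priming by Cdk5, and marked SPAR is degraded through an SCF ubiquitin ligase, which weakens excitatory synapses. SPAR switches Rap off, Rapgef2 switches Rap on, and Rap and Ras act in opposite ways on AMPA receptors and spine size, so this pathway is known as a route of homeostatic synaptic downscaling.

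The start regions of both polo-like kinase genes are printed because the cAMP response element, the DNA element bound by the activity-regulated factor CREB, lies in 1 of them. They are RefSeq sequences of the GRCr8 assembly, a later assembly than the one the reads were mapped to, from 250 bases before to 50 bases after the transcription start, and capitals mark the element TGACGTCA or, where the whole element is missing, its core TGACG. The Plk2 region is chr2:43702286-43702585 on the plus strand and the Plk3 region chr5:135848851-135849150 on the minus strand.
Plk2: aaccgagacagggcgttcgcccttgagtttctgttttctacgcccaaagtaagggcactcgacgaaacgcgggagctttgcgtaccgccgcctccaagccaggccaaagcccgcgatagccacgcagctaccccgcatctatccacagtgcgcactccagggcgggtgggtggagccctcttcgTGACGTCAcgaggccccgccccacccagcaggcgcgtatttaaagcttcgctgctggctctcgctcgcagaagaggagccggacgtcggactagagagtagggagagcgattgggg
Plk3: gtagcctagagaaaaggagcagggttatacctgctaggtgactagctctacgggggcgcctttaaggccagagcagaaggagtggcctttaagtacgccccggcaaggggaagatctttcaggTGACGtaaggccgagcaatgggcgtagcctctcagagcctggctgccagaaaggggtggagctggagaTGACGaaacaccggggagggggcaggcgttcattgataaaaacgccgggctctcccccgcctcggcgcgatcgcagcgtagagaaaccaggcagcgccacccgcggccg

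In the Plk2 region the whole element spans bases 185 to 192 and begins 66 bases before the start, and it contains the core on each strand. The Plk3 region holds the core at bases 124 to 128 and at bases 192 to 196. All 9 genes had a RefSeq start region, with 10 regions in all because Sipa1l1 had more than 1 start. The starts are as annotated and were not checked against these reads. In Sipa1l3 and Rapgef2 the annotated start directly follows TTGCAG, letters that resemble the end of an intron. Those windows may therefore not lie at a true start. Searched on both strands, TGACGTCA was present in 1 of the 9 genes and in 1.83% of the 33469 rat start regions of this length. The core TGACG was present in Plk2, Plk3 and Sipa1l1 and in 21.2% of all regions, those with the whole element included. The AP-1 motif TGANTCA (7.33% of all regions), the E-box CACGTG (6.42%) and the CArG box (1.64%) were found in 0 of the 9 genes. These are matches of letters in a window and no binding was measured.

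Libraries held 12290890 to 14520831 counts in somata and 15120334 to 18455662 in processes, but the mitochondrial genome took 22.6 to 26.7% of the counts in somata and 68.5 to 72.5% in processes. The remaining genes therefore shared 9517542 to 11227599 counts in somata and 4702054 to 5491237 in processes, and members were measured less precisely there. Levels are counts per 1000000 counted reads (CPM) after TMM scaling, which evens out such differences in composition. Neuron markers were present in every library, with a summed level of 9 genes of 1999 to 2246 CPM in somata and 4277 to 5697 CPM in processes. By gene, 3 of the 9 were called higher and 5 lower in processes of control cultures (median log2 fold change -0.37), Map2 being among the higher ones at 2.30. The summed level of 8 astrocyte markers was 2772 to 4098 CPM in somata and 10826 to 14289 CPM in processes, where 4 were called higher and 2 lower in control cultures. Gfap (2.60) and S100b (2.16) were among the higher ones, and Gja1 (-0.38) and Slc1a3 (-0.56) were the lower ones. Microglia markers summed to at most 2.44 CPM, and 9 oligodendrocyte lineage markers to between 271 and 648 CPM.

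PTX raised Plk2 in both compartments, more than 3-fold in somata and about 2.2-fold in processes, and Plk2 was the 1 member of 9 that passed the test in each compartment. Among the members that did not pass, Plk3 and Sipa1l2 had positive estimates and Sipa1l1 and Sipa1l3 negative ones on both sides of the membrane. Among all genes tested, PTX changed 3.59% in somata and 3.74% in processes at an adjusted p under 0.05, and raised 2.09% and 1.64%. The median log2 fold change of the 9 genes was -0.04 in somata and -0.17 in processes, beside -0.01 for all genes in both. The groups of libraries did not overlap for 4 members that were higher with PTX and 3 that were lower in somata, beside 24% and 25% of all genes, and for 3 and 4 members in processes, beside 20.1% and 22.3%. The test above did not use the replicate number. With that number added to the fit as a block, 5 members passed in somata and 4 in processes, beside 14% and 11.2% of all genes.

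**Figure D1:**
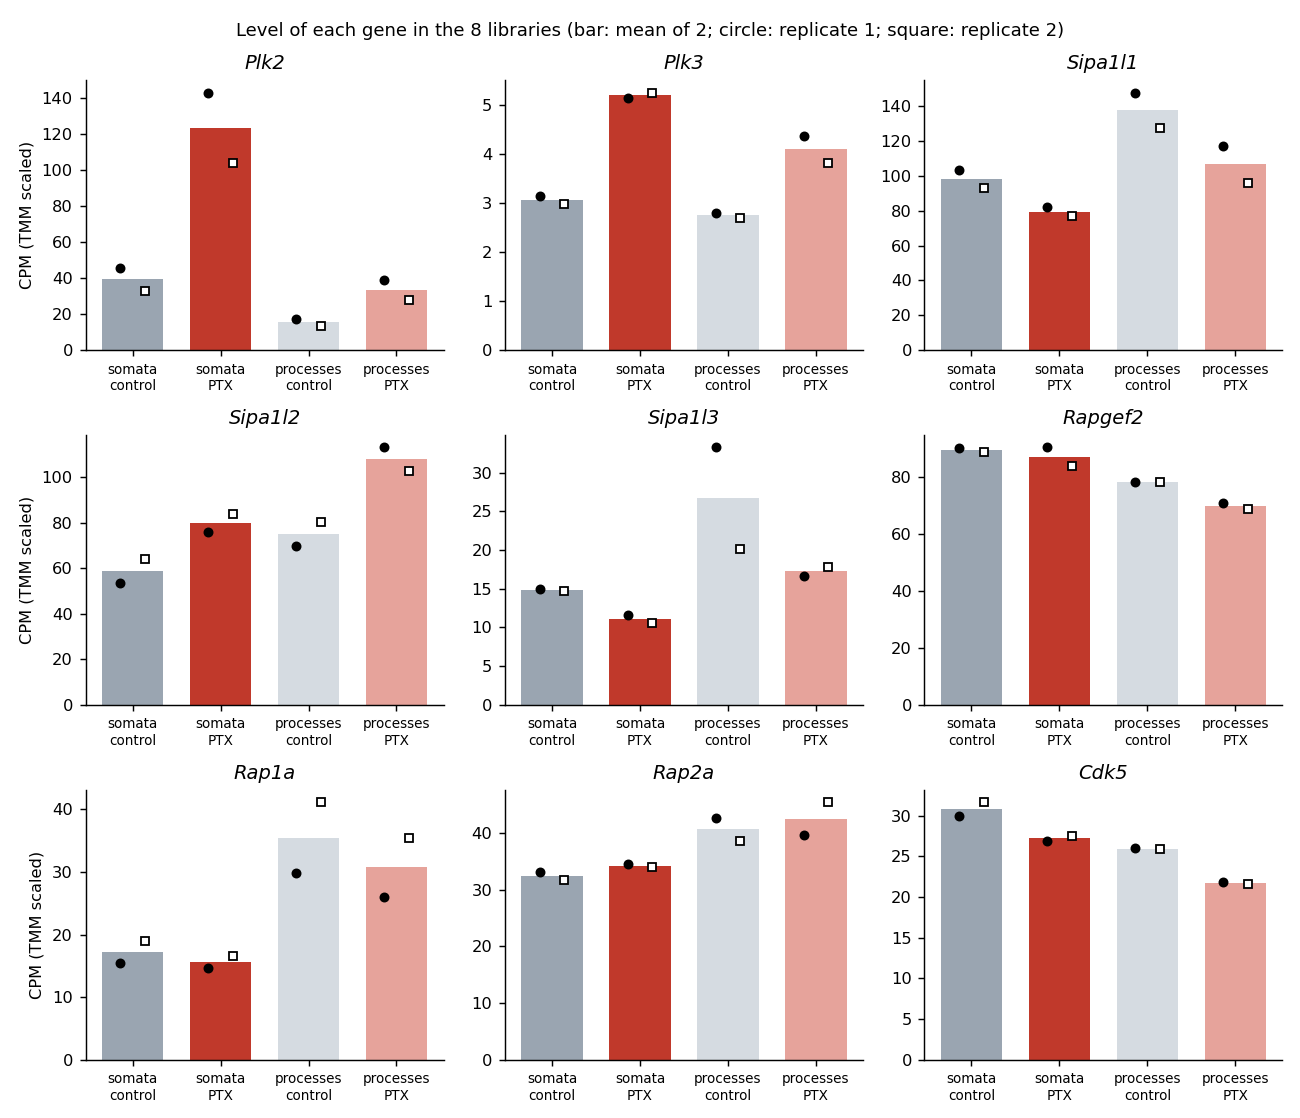
Level of each of the 9 genes in CPM after TMM scaling (vertical axis, from 0, a separate scale for each gene) in the 4 conditions, with bars for the mean of 2 libraries, circles for replicate 1 and squares for replicate 2. Plk2 was highest in the somata PTX libraries, at 143 and 104 CPM, and in each compartment the PTX points of Sipa1l1 lie below, and those of Sipa1l2 above, the control points.

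Plk2 read 45.8 and 32.7 CPM in the somata control libraries and 143 and 104 CPM in the somata PTX libraries. In processes it read 17.4 and 13.4 CPM in control and 39.04 and 27.7 CPM with PTX. The PTX libraries lay above the control libraries in each compartment, and replicate 1 lay above replicate 2 in all 4 conditions. These levels rest on 834 to 3980 reads per library in somata and 114 to 340 reads in processes.

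The rise of Plk2 was 1.66 on the log2 scale in somata (SE 0.212, 3.15-fold, adjusted p = 0.00235 by edgeR's quasi-likelihood test with Benjamini-Hochberg adjustment). In processes it was 1.11 (SE 0.249, 2.16-fold, adjusted p = 0.0369). Within replicate numbers the change was 1.64 and 1.67 in somata and 1.16 and 1.04 in processes. Ordered by estimate, Plk2 ranked 61 from the top of the 14309 genes in somata and 244 in processes. The call in somata held without any 1 of the 8 libraries, whereas the call in processes was lost without either control or either PTX process library. The log2 fold change in processes was then 1.31 without control replicate 1 and 0.93 without control replicate 2. It was 0.84 without PTX replicate 1 and 1.34 without PTX replicate 2. Each of these 4 fits leaves 1 library in a group and called fewer of all genes too, so the loss is not particular to Plk2.

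The PTX effect on Plk2 in processes minus that in somata was -0.55 on the log2 scale (SE 0.325, 95% interval -1.27 to 0.17, adjusted p = 0.999993 by the edgeR quasi-likelihood test). That interval takes in no difference as well as a rise in processes that is smaller by more than 1 log2 unit. With the replicate number added to the fit as a block, the difference was -0.54 with a smaller SE of 0.149 (adjusted p = 0.181 by the same test). Without the block, 0 of the 9 members, and 0% of all genes, were called as differing between compartments in their response to PTX. At an unadjusted p under 0.05 the count was 0 of 9 members and 572 of the 14309 genes. The likelihood ratio test, DESeq2 and the block fit also called 0 members. Of all 14309 genes they called 4, 4 and 15 (0.105% for the block fit). With so few calls over all genes, 0 of 9 members does not show an equal response in both compartments.

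Plk3, a related kinase of the stress response, was much the less covered gene, with 74 and 76 reads in somata control and 143 and 124 in somata PTX. Its level was 3.15 and 2.98 CPM in somata control and 5.14 and 5.25 CPM with PTX. The groups did not overlap, and the log2 fold change of 0.76 (SE 0.187) missed the threshold, with an adjusted p of 0.0519 by the edgeR quasi-likelihood test and of 0.00504 when the replicate number was added to the fit as a block. In processes Plk3 had 25 and 23 reads in control and 38 and 38 with PTX, and the log2 fold change was 0.57 (SE 0.243, adjusted p = 0.268). Plk3 made up 6.43 and 8.35% of the reads of both kinases together in somata control and 3.47 and 4.81% in somata PTX.

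Plk1, the family member that drives mitosis in dividing cells, read 2.34 and 2.35 CPM in somata control and 2.66 and 3.64 CPM in somata PTX, a log2 fold change of 0.42 (SE 0.281, adjusted p = 0.568 by edgeR). In processes it read 1.004 and 1.996 CPM in control and 2.64 and 3.52 CPM with PTX, a log2 fold change of 1.05 (SE 0.386, adjusted p = 0.192). The PTX libraries lay above the control libraries on both sides of the membrane. Of the 5 kinases of this family tested, only Plk2 passed in each compartment. Markers of cycling cells also moved with PTX: the summed level of 5 markers was 84.9 to 93.0 CPM in somata control and 111 to 149 CPM in somata PTX, and 125 to 147 CPM against 243 to 247 CPM in processes. Of these markers 1 was called higher in somata and 3 in processes, and their part in the results for the kinases was not tested. Of 9 neuron markers, PTX raised Gad1 and Gad2 and lowered Rbfox3 in somata, and raised Gad2 and Slc17a7 and lowered Syn1 in processes. Of 8 astrocyte markers Gja1 was lower in somata (log2 fold change -0.61, adjusted p = 0.0215 by edgeR). Of 5 endothelial and fibroblast markers tested, Kdr was higher in somata (1.41, adjusted p = 0.0102), and the list summed to 17.4 to 46.6 CPM in somata control and 30.5 to 57.0 CPM in somata PTX. In such bulk samples more cells of a type and more RNA per cell cannot be told apart.

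Cdk5, the priming kinase, read 29.9 and 31.6 CPM in somata control and 26.9 and 27.5 CPM with PTX. In processes it read 26.0 and 26.0 CPM in control and 21.8 and 21.6 CPM with PTX. The PTX libraries were the lower ones on either side of the membrane. The log2 fold change was -0.18 (SE 0.102) in somata and -0.26 (SE 0.115) in processes, and neither passed (adjusted p = 0.472 and 0.295 by edgeR).

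**Figure D2:**
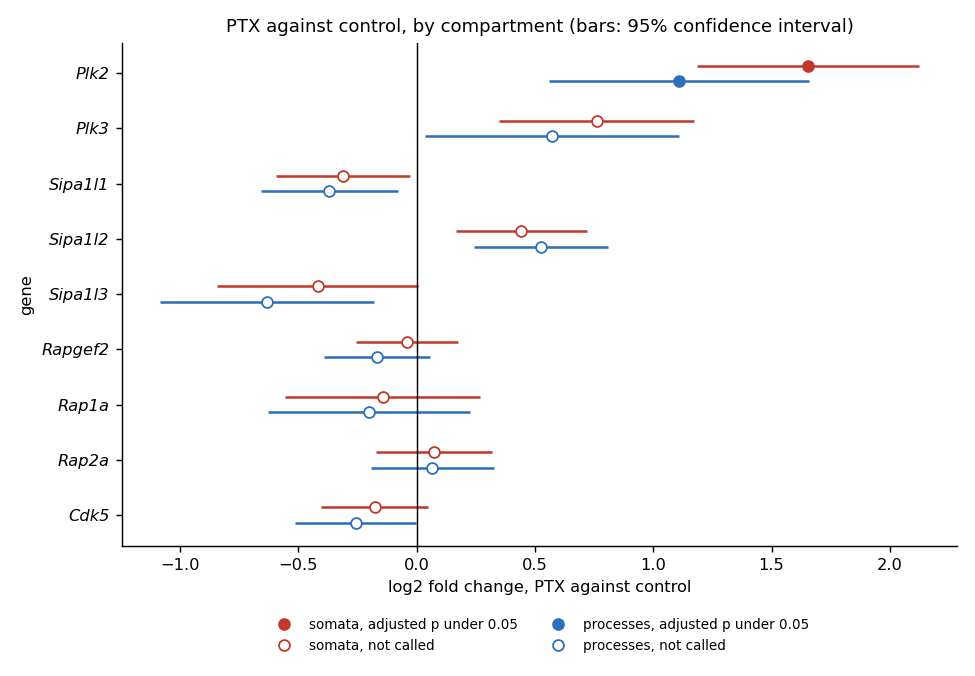
Log2 fold change of PTX against control (horizontal axis) for each of the 9 genes in somata (red) and processes (blue), with 95% confidence intervals from the edgeR fit and filled points for an adjusted p under 0.05. Plk2 has the filled points, at 1.66 and 1.11, and for the other 8 genes the points are open.

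The 3 Sipa1l genes encode related GTPase-activating proteins that switch Rap off, and Sipa1l1 encodes the Plk2 substrate SPAR. Sipa1l1 read 104 and 93.1 CPM in somata control and 81.9 and 76.8 CPM with PTX. In processes it read 148 and 127 CPM in control and 117 and 95.8 CPM with PTX. The PTX libraries were lower than the control libraries in each compartment. The log2 fold change was -0.31 (SE 0.128) in somata and -0.37 (SE 0.131) in processes, with adjusted p-values of 0.263 and 0.175 by the edgeR quasi-likelihood test, and of 0.0189 and 0.00885 with the block.

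Sipa1l2, also called SPAR2, had the opposite sign. It read 53.4 and 63.9 CPM in somata control and 75.9 and 83.6 CPM with PTX, and 69.7 and 80.1 CPM in processes control and 113 and 103 CPM with PTX. All 4 PTX libraries exceeded the control libraries of their compartment. The log2 fold change was 0.44 (SE 0.125, adjusted p = 0.0855 by edgeR, 0.00212 with the block) in somata and 0.53 (SE 0.129, adjusted p = 0.0504, 0.000954 with the block) in processes.

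Sipa1l3 read 15.0 and 14.7 CPM in somata control and 11.6 and 10.6 CPM with PTX, a log2 fold change of -0.42 (SE 0.192, adjusted p = 0.331 by edgeR, 0.0474 with the block). In processes it read 33.2 and 20.1 CPM in control and 16.6 and 17.8 CPM with PTX, a log2 fold change of -0.63 (SE 0.205, adjusted p = 0.137, 0.0125 with the block). The groups did not overlap in either compartment, but 1 library, processes control replicate 1, stood well above its partner. The change in processes was -0.99 within replicate 1 and -0.17 within replicate 2, and the estimate was -0.22 without control replicate 1 (adjusted p = 0.598 by edgeR) and -0.95 without control replicate 2 (adjusted p = 0.0156).

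In the fit with this block, 5 of the 9 members passed in somata and 4 in processes, beside 14% and 11.2% of all genes tested in that fit. These were Plk2, Plk3, Sipa1l2 (higher), Sipa1l1 and Sipa1l3 (lower) in somata, and the same set without Plk3 in processes.

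The summed level of the 3 Sipa1l genes was close in control and PTX libraries, while the proportions of Sipa1l1 and Sipa1l2 differed. The genes summed to 172 and 172 CPM in somata control and 169 and 171 CPM in somata PTX, and to 251 and 228 CPM in processes control and 247 and 216 CPM in processes PTX. Sipa1l1 supplied 60.3 and 54.2% of the reads of the 3 genes in somata control and 48.3 and 44.9% with PTX, and 59.0 and 56.0% in processes control and 47.5 and 44.3% with PTX. Sipa1l2 supplied 31.0 and 37.2% in somata control and 44.8 and 48.9% with PTX, and 27.8 and 35.2% in processes control and 45.7 and 47.5% with PTX. In each compartment the shares of the PTX libraries lay outside the range of the control libraries for both genes. Shares within a library do not depend on how libraries were scaled, but longer transcripts give more reads, so they are not shares of molecules. No test was run on them.

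**Figure D3:**
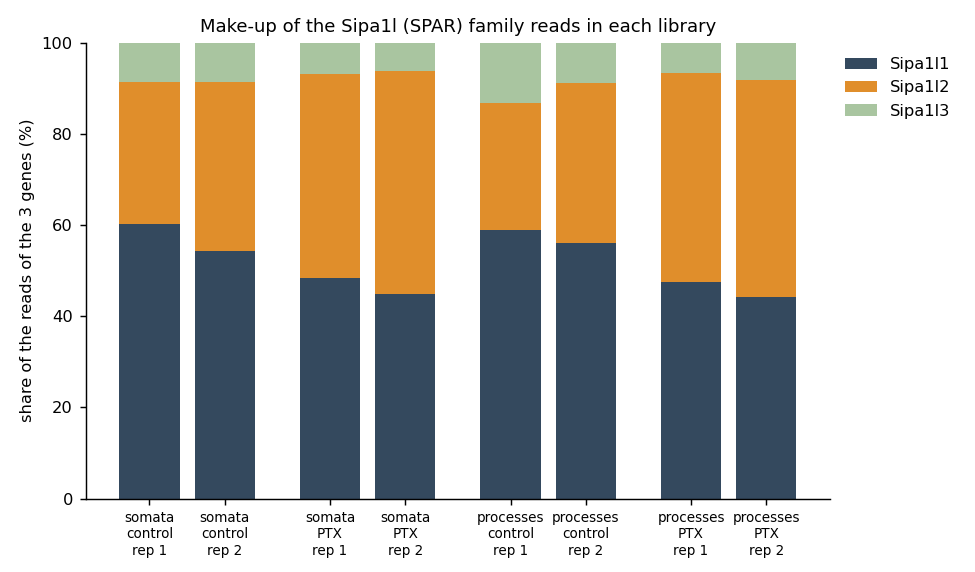
Share of the reads of Sipa1l1, Sipa1l2 and Sipa1l3 together that each gene supplied (vertical axis, %), with 1 stacked bar for each of the 8 libraries. The Sipa1l1 part is smaller in the 4 PTX libraries, at 44.3 to 48.3%, than in the 4 control libraries, at 54.2 to 60.3%.

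The kinase and its substrate were also compared within each library. There were 0.442 and 0.351 Plk2 reads per Sipa1l1 read in somata control and 1.75 and 1.35 in somata PTX, and 0.118 and 0.105 in processes control and 0.333 and 0.289 in processes PTX. Every PTX library exceeded both control libraries of its compartment. The log2 ratio rose by 1.97 in somata and by 1.48 in processes, with a mean of 1.72, or 3.30-fold (two-sided exact permutation test within compartments, p = 0.0556). That p is the smallest that the 36 arrangements of these libraries allow.

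**Figure D4:**
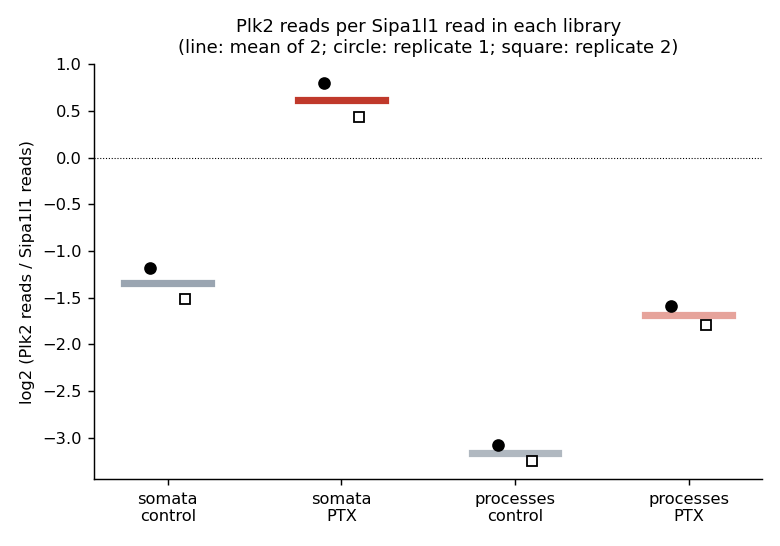
Log2 of Plk2 reads per Sipa1l1 read (vertical axis) in the 4 conditions, with circles for replicate 1, squares for replicate 2 and lines for the mean of 2 libraries. The somata PTX libraries lie above 0, where Plk2 reads outnumber Sipa1l1 reads, and the other 6 libraries lie below it.

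Rapgef2, the exchange factor also known as PDZ-GEF1, read 90.4 and 89.0 CPM in somata control and 90.5 and 83.9 CPM with PTX, and 78.4 and 78.3 CPM in processes control and 70.8 and 68.8 CPM with PTX. Its log2 fold change was -0.04 (95% interval -0.26 to 0.17) in somata and -0.17 (-0.39 to 0.06) in processes. The groups overlapped in somata and did not in processes, and neither estimate passed (adjusted p = 0.913 and 0.466 by edgeR).

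Rap1a, a Rap GTPase tied to the removal of synaptic AMPA receptors, read 15.5 and 19.0 CPM in somata control and 14.7 and 16.5 CPM with PTX. In processes it read 29.8 and 41.1 CPM in control and 26.0 and 35.5 CPM with PTX. The groups overlapped in both compartments, and the log2 fold changes were -0.14 (95% interval -0.55 to 0.27) and -0.20 (-0.63 to 0.22). Rap2a, a GTPase whose active form shrinks spines, read 33.2 and 31.8 CPM in somata control, 34.5 and 34.0 CPM in somata PTX, 42.7 and 38.6 CPM in processes control and 39.6 and 45.4 CPM in processes PTX. Its log2 fold changes were 0.07 (-0.17 to 0.32) and 0.07 (-0.19 to 0.33), and no estimate of either GTPase passed the test (adjusted p from 0.674 to 0.846 by edgeR). Reads of near-identical relatives such as Rap1b and Rap2b may not be fully separable in these counts.

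Of 70 further genes of Rap and Ras signalling, polo-like kinases, Cdk5 regulators and SCF ligase subunits, 64 were tested. PTX raised 1 and lowered 2 of them in somata, and raised 1 and lowered 3 in processes. These are 4.69% and 6.25% of the genes tested on these lists, close to the 3.59% and 3.74% of all genes. Rasgrp1, a diacylglycerol-regulated Ras exchange factor, was the gene that rose, from 21.9 and 15.9 to 51.3 and 44.8 CPM in somata and from 10.04 and 8.46 to 22.2 and 22.1 CPM in processes. Its log2 fold change was 1.35 (SE 0.153, adjusted p = 0.00116 by edgeR) in somata and 1.26 (SE 0.190, adjusted p = 0.00624) in processes, where it was lost without control replicate 1 (adjusted p = 0.0516).

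Rasal1, a calcium-regulated Ras GTPase-activating protein, fell from 22.7 and 23.5 to 9.82 and 9.82 CPM in somata (log2 fold change -1.23, SE 0.189, adjusted p = 0.00593). In processes it fell from 26.0 and 15.5 to 6.32 and 5.83 CPM (-1.78, SE 0.232, adjusted p = 0.00392). Both calls held without any 1 of the 8 libraries. Garnl3, which carries a Rap GTPase-activating domain, fell by 0.77 on the log2 scale in somata (SE 0.141, adjusted p = 0.0137) and by 0.77 in processes (SE 0.148, adjusted p = 0.0194). Leaving out any 1 library of the 4 compared ended that call in somata (adjusted p up to 0.0957), and leaving out processes control replicate 1 or either processes PTX library ended it in processes (up to 0.134). Dock4, an exchange factor for Rap and Rac, passed in processes at an adjusted p of 0.0498 (log2 fold change -0.47, SE 0.115) and lost the call without any 1 of the 8 libraries (adjusted p from 0.0635 to 0.254). In somata its log2 fold change was -0.35 (SE 0.108, adjusted p = 0.119, 0.00862 with the block).

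By class, the test called none of the 5 Rap GTPases, 6 Ras GTPases, 15 effectors, 8 genes of the Cdk5 list or 5 SCF subunits with PTX in either compartment, members included. Of these 39 genes, 6 in somata and 9 in processes had an unadjusted p under 0.05. The share of all genes under that unadjusted threshold was not counted, so these 2 counts have no background beside them. The likelihood ratio test called 1 and 3 of the 39 genes, beside 6.79% and 6.63% of all genes. DESeq2 called 0 and 0, beside 3.52% and 4.58%, and the block fit 7 and 6. Across those classes the median log2 fold change lay between -0.07 and 0.08, beside -0.01 for all genes. The block placed 6 of the 64 genes outside the members higher and 8 lower in somata, and 6 and 9 in processes. These are 21.9% and 23.4% of the 64 genes, above the 14% and 11.2% of all genes given before. The lists were chosen with earlier results of these data known, so these shares are a description and no test of the pathway.

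In order of level, Plk2 was highest in somata PTX (124 ± 27.7 CPM, SD, n = 2), then in somata control (39.2 ± 9.27), processes PTX (33.3 ± 8.05) and processes control (15.4 ± 2.83). After TMM scaling the libraries of somata control and processes PTX overlapped and the other neighbours did not. The TMM factors were 1.81 to 1.93 in somata and 0.486 to 0.570 in processes. How far levels lie apart between compartments, and so this overlap, therefore depends on the scaling. The genes whose log2 CPM followed that of Plk2 most closely over the 8 libraries, among the 10207 genes averaging 5 CPM or more, were Ttc19 (Pearson r = 0.997), Slc6a17 (0.996), Nrn1 (0.994), Mvd (0.994) and Kcnj4 (0.994). These libraries share their compartment and treatment, so the coefficients describe the order of the conditions and carry no test. Their log2 fold changes with PTX, which spanned 0.63 to 1.03 for somata and 0.41 to 0.86 for processes, follow from that choice and are given as a description.

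The same libraries were then compared between compartments, so these values share libraries with the PTX comparisons above. Plk2 was the member with the lowest level in processes relative to somata, while the 3 Sipa1l genes, Rap1a and Rap2a were higher in processes after TMM scaling and lower with library size alone. After TMM scaling, 5 of the 9 members were called higher in processes of control cultures and 1 lower, beside 25.8% and 21.9% of all genes. In PTX cultures 5 were higher and 3 lower, beside 25.7% and 24%. The median log2 fold change of the 9 genes was 0.32 in control and 0.31 with PTX, beside -0.05 for all genes in both.

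Plk2 was lower in processes, its log2 fold change being -1.35 in control (SE 0.239, adjusted p = 0.000999 by edgeR) and -1.89 with PTX (SE 0.222, adjusted p = 5.5e-05). Rap1a was higher, with 1.04 in control (SE 0.190, adjusted p = 0.0012) and 0.98 with PTX (SE 0.191, adjusted p = 0.00163). Without any 1 of the 8 libraries the calls of Plk2 and Rap1a held. In the same order Sipa1l1 was higher by 0.48 and 0.42, Sipa1l2 by 0.35 and 0.43, Sipa1l3 by 0.85 and 0.63 and Rap2a by 0.32 and 0.31, all with adjusted p-values from 0.00482 to 0.0416.

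Rapgef2 had a log2 fold change of -0.20 in control (adjusted p = 0.129) and of -0.32 with PTX (adjusted p = 0.0204), and Cdk5 of -0.25 (adjusted p = 0.0833) and -0.33 (adjusted p = 0.0288). Plk3 did not pass in either culture, at -0.16 (95% interval -0.66 to 0.35) and -0.35 (-0.80 to 0.10). In PTX cultures fewer than the 8 members were called when any 1 PTX library was left out, which leaves 1 library in a group. In control cultures fewer than the 6 members were called without either somata library of either treatment or without processes control replicate 1. In each of these fits fewer of all genes were called as well, so the fall is not particular to the members.

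The direction for these 5 members depends on the scaling. With library size alone, which keeps the mitochondrial counts in the denominator, the median of all genes was -1.86 in control and -1.87 with PTX, and Sipa1l1, Sipa1l2, Sipa1l3, Rap1a and Rap2a then had negative values. Measured against the median gene, the values hardly moved over 5 scalings. A scaling shifts all genes of a comparison nearly alike, so this follows from the calculation and does not test the direction. In control cultures Plk2 stood -1.30 to -1.29 from the median gene, Rap1a 1.09 to 1.10, Sipa1l3 0.88 to 0.90, Sipa1l1 0.53 to 0.54, Sipa1l2 0.40 to 0.41 and Rap2a 0.37 to 0.38. The neuron and astrocyte markers that differed between compartments in both directions are given above, and their part in these differences was not tested.

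**Figure D5:**
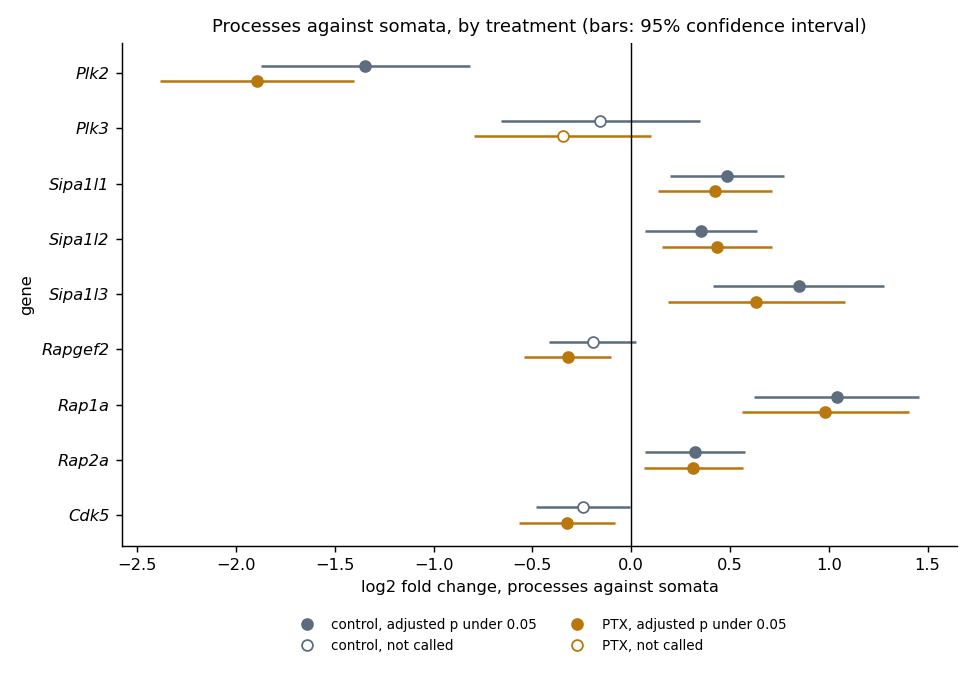
Log2 fold change of processes against somata after TMM scaling (horizontal axis) for each of the 9 genes in control (grey) and PTX (ochre) cultures, with 95% confidence intervals and filled points for an adjusted p under 0.05. Plk2 lies farthest to the left, at -1.35 and -1.89, and Rap1a farthest to the right, at 1.04 and 0.98. With library size alone the points of the Sipa1l genes, Rap1a and Rap2a lie below 0.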

How the data were processed

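Total RNA libraries of the 8 samples were ribosome-depleted and made with a directional kit. According to the study's methods, the authors used Trimmomatic for trimming and Subread subjunc for alignment to Rnor 6.0, and counted reads with featureCounts on an Ensembl annotation before summing by symbol. The submitters' processing notes name STAR as the aligner instead. The deposited counts are whole numbers without normalization for 28909 symbols. Whether strand was used in counting is not given in the sources used here, so reads of antisense and overlapping genes, and of near-identical copies, are of uncertain origin. Deposited tables of the authors' own comparisons (log2 fold changes, log2 CPM, likelihood ratios, p-values and FDR) were not used.

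A gene was tested when 2 or more libraries each held over 20 of its reads (14309 genes). In R 4.3.3, edgeR 4.0.16 fitted all 8 libraries with TMM factors and 1 coefficient per condition, leaving 4 residual degrees of freedom. Adjustment of the glmQLFTest p-values followed Benjamini and Hochberg over all genes, with a threshold of 0.05. The SE is the size of the log2 fold change over the root of F. Log2 CPM used a prior count of 2 and ratios a pseudocount of 0.5. Tests were also run on simulated counts drawn without a replicate effect, so that check does not cover the pairing of replicates described below.

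The replicate numbers, which come from the labels, paired the libraries: differences between replicates correlated across genes at r = 0.27 to 0.54 in every pair of conditions. The labels do not say what the number marks.

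Other settings tried were DESeq2 1.42.0, the likelihood ratio test, other scalings and filters, the replicate block, only the libraries compared, and each library left out. The 9 members are described in full, genes of the pathway lists were named where they passed with PTX, and the 5 genes nearest to Plk2 by correlation were named. The members and lists were chosen with earlier results of these data known.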

Additional observations from a re-analysis of the deposited data

How the results depend on the processing

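With PTX in somata 1 member was called, and 3 by the likelihood ratio test, 2 with library size alone, 3 without a filter, 2 with at least 10 reads in every library and 5 with the replicate block. Leaving out each library in turn gave 1 each time. In processes 1 member was called, and 2 by the likelihood ratio test, DESeq2, upper quartile or RLE scaling, without the mitochondrial genome or with at least 10 reads in every library, 3 without a filter, 4 with the block, and 0 to 1 without each library. Sipa1l2 was the added call wherever 2 were called in processes, and Plk3 in somata. Of all genes, 513 of 14309 were called in somata, 972 by the likelihood ratio test, 491 with library size alone and 2002 with the block. Without a filter 1141 of 22657 were called there, and with at least 10 reads in every library 455 of 12578. In processes 535 of 14309 were called, 949 by the likelihood ratio test, 655 by DESeq2 and 1601 with the block. Upper quartile and RLE scaling gave 549 and 548 there, and no filter 1129 of 22657. For processes against somata, 8 members were called with PTX, 5 by DESeq2, 5 with upper quartile scaling and 3 to 8 without each library. Of all 14309 genes, DESeq2 called 6030 and upper quartile scaling 7672 for processes against somata with PTX. Plk2 kept its direction in all 4 comparisons under every alternative run. A fit without 1 library of a compared group leaves 1 library in that group, and such fits called fewer of all genes as well as of the members or no more of them.

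With library size alone, which by construction keeps the mitochondrial share, log2 values for processes against somata turned negative in control for Sipa1l1 (-1.33), Sipa1l2 (-1.45), Sipa1l3 (-0.98), Rap1a (-0.76) and Rap2a (-1.49). With PTX they were -1.41, -1.40, -1.19, -0.84 and -1.51. Rapgef2 with PTX in somata became 0.025.

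Estimates that lay near 0 changed sign without single libraries. With PTX in somata Rapgef2 ranged from -0.10 to 0.0045 and Rap1a from -0.29 to 0.00018. In processes Rap1a ranged from -0.45 to 0.049 and Rap2a from -0.038 to 0.16. The difference between compartments in the PTX effect ranged from -0.21 to 0.080 for Sipa1l1, -0.040 to 0.21 for Sipa1l2, -0.53 to 0.20 for Sipa1l3, -0.30 to 0.19 for Rap1a and -0.11 to 0.085 for Rap2a, and for Rap2a it was 0.00053 by DESeq2, 0.017 with upper quartile and 0.00053 with RLE scaling. The cause of these changes was not tested. The replicate block changed no other member's call. In processes, Plk3 had 23 to 38 reads per library, and counting error alone gave a coefficient of variation of 16.2 to 20.4%.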
